A study of Mus musculus with 12 samples.

Results

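A panel of 47 genes of mitosis and the G2/M transition was followed in Th9 cells, the helper T cells that make IL-9. The genes were taken by symbol, and all 47 were among the 32051 genes measured and among the 13733 that passed a minimum mean of 0.1 FPKM (fragments scaled by exon length and library size, a level per unit length). Naive CD4+ T cells from the spleens of C57BL/6J mice were stimulated through CD3 and CD28 and polarized with IL-4 at 10 ng/mL, TGF-β at 1 ng/mL and blockade of IL-12 and IFN-γ, conditions that all groups shared. RNA was taken on day 4 from 4 groups with 3 replicates each: DMSO (the vehicle, control Th9 cells), 10 μM EpA (a natural cyclic peptide, EpA-Th9 cells), 5 μM fatostatin (an inhibitor of SREBP, the lipid synthesis transcription factor), and 10 μM EpA with 5 μM fatostatin. No genotype differed between the groups. The labels do not say whether replicates came from separate mice or cultures, so p-values measure only the spread between these samples.

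Cells enter mitosis when CDK1, bound to cyclin B and cleared of inhibitory phosphates by the CDC25 phosphatases, becomes active. The genes for this machinery are switched on together late in each cycle by the B-MYB-MuvB and FOXM1 complexes, and in resting cells the DREAM complex represses them. DREAM and MuvB dock at a promoter element called the cell cycle genes homology region (CHR), and the factor NF-Y binds CCAAT boxes nearby. p21, the product of *Cdkn1a*, inhibits cyclin-dependent kinases and is a target of p53. Activated T cells divide quickly, so these transcripts are abundant in a polarizing culture.

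The promoters are shown first, since many genes of the panel hold the same motifs there. RefSeq promoter windows (GRCm38.p6, 250 bases before to 50 after the annotated start) were found for 39 of the 47 genes, all but *Ccna2*, *Cdc25c*, *Foxm1*, *Tpx2*, *Aurkb*, *Incenp*, *Kif20a* and *Smc4*. The CHR core TTTGAA, searched on both strands, lay in 29 of them (74.4%), against 20.2% of all 27025 genes with a window. CCAAT, also on both strands, lay in 30 (76.9%), against 41.1% of all genes, and both lay in 26 (66.7%), against 7.97%. The 100 bases before the start of 7 genes that hold both motifs are given 5′ to 3′ on the strand of the gene, with the CHR core (TTTGAA or TTCAAA) and the CCAAT box (CCAAT or ATTGG) in capitals.
Ube2c chr2:164769829-164769928 (plus strand): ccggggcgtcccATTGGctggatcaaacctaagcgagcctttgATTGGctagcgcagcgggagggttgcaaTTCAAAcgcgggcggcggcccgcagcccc
Cdk1 chr10:69352913-69353012 (minus strand): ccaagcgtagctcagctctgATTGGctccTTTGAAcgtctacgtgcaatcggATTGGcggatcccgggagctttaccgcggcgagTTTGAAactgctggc
Top2a chr11:99024190-99024289 (minus strand): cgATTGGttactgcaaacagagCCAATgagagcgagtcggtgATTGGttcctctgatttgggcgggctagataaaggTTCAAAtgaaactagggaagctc
Espl1 chr15:102296193-102296292 (plus strand): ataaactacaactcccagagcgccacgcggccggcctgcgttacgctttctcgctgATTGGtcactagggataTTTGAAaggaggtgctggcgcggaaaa
Kif11 chr19:37376282-37376381 (plus strand): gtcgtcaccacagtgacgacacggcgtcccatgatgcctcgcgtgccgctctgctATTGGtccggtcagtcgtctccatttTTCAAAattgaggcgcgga
Bub3 chr7:131560270-131560369 (plus strand): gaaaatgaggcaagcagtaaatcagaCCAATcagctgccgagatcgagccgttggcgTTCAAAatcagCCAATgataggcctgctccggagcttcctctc
Cdc20 chr4:118437344-118437443 (minus strand): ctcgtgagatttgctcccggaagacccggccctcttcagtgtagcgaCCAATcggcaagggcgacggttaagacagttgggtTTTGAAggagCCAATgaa
A CCAAT box lay upstream of a CHR core in each of the 7 stretches. Across the panel the 36 CHR matches had a median position 10 bases before the start, and 26 of them lay from 50 bases before the start onward. The 66 CCAAT matches had a median position 69 bases before the start. A letter match is a description of the window and not a site of binding. Among other mitotic genes the CHR core was found in 34 of 59 windows (57.6%), and among S phase genes in 4 of 38 (10.5%), although CCAAT was found in 65.8% of the latter. The window of *Cdkn1a* held neither motif.

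**Figure D1:**
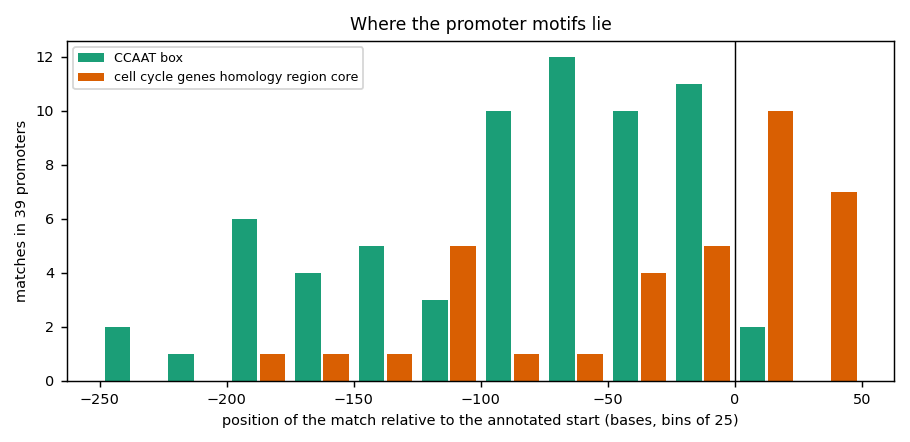
Number of motif matches (y axis) by position relative to the annotated start (x axis, bases, in bins of 25) in the promoters of 39 mitosis and G2/M genes. The 66 CCAAT matches (green) lie mostly before the start and the 36 CHR matches (orange) gather around it.

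As to the libraries as a whole, between 36019739 and 43656682 reads per library fell on genes, a factor of 1.21, and no library stood apart in depth. The summed level of 4 T cell markers was 404 to 411 FPKM in DMSO, 363 to 366 in EpA, 398 to 411 in fatostatin and 350 to 354 with both compounds. Of these 4 genes 3 fell with EpA and with both compounds, and *Cd4* rose: *Cd3e* gave -0.33 with EpA and -0.39 with both on the log2 scale, larger than the median changes of the panel given below, and *Cd4* gave 0.15 and 0.21. The 4 Th9 markers summed to 334 to 338 FPKM in DMSO, 905 to 936 in EpA, 351 to 359 in fatostatin and 1100 to 1160 with both compounds. In that list *Il9* had log2 differences of 3.55 with EpA and 3.91 with both, whereas *Irf4* (-0.12) and *Gata3* (-0.12) fell with EpA and the median of the 4 with both was 0.15. Markers of B cells (3 genes, at most 1.19 FPKM in sum), myeloid cells (4 genes, at most 0.439) and NK cells (2 genes, at most 0.0853) were near 0. The 2 CD8 genes summed to 8.71 to 9.79 FPKM in DMSO, 7.85 to 8.57 in EpA, 8.55 to 10.2 in fatostatin and 6.98 to 8.6 with both compounds. Of these *Cd8a* fell from 1.89, 1.6 and 1.93 FPKM in DMSO to 0.829, 0.766 and 0.812 in EpA (limma adjusted p = 2.85e-05) and 0.466, 0.43 and 0.577 with both (limma adjusted p = 4.51e-07), and *Cd8b1* passed in neither. The myeloid sum was 0.0231 to 0.153 FPKM in DMSO and 0.364 to 0.439 with both compounds. The part of these shifts in the results on mitotic genes was not tested.

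*Cdkn1a* (ENSMUSG00000023067, chromosome 17, 29090976 to 29100727, plus strand, GRCm38) was read first, since the panel is set against it. This gene was picked with its rise under each compound already known from these data. The p-values for *Cdkn1a* therefore describe that rise and are no independent test of it. Its level was 26.0, 26.3 and 26.3 FPKM in DMSO, 52.3, 52.4 and 52.0 in EpA, 50.9, 52.5 and 53.3 in fatostatin, and 85.0, 87.3 and 89.5 with both compounds. The libraries of each treated group lay above all DMSO libraries, and EpA and fatostatin overlapped each other. The log2 difference from DMSO was 0.99 (SE 0.0223, limma adjusted p = 4.26e-10) for EpA, 0.99 (limma adjusted p = 2.89e-10) for fatostatin and 1.73 (limma adjusted p = 1.96e-12) for both. So the order of the groups for *Cdkn1a* was DMSO, then the single compounds with no separation between them, then the combination.

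The panel ran in the opposite order. The summed level of the 47 genes was 2360 to 2397 FPKM in DMSO, 2232 to 2241 in EpA, 2196 to 2212 in fatostatin and 1992 to 2049 with both compounds, with no overlap between any of the groups. As a share of all FPKM this was 0.827% to 0.843% in DMSO, 0.783% to 0.789% in EpA, 0.765% to 0.79% in fatostatin and 0.699% to 0.732% with both compounds, so on this scale the single compounds overlapped. DMSO had the highest and the combination the lowest group mean for 33 of the 47 genes, an order found in 12.9% of all tested genes. The combination had the lowest mean for 40 of 47, against 21.9% of all tested genes. In bulk RNA, fewer cells in mitosis and less of these transcripts per cell cannot be told apart. No correlation between the panel and *Cdkn1a* over the libraries is given, because the 12 libraries fall into the 4 groups.

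**Figure D2:**
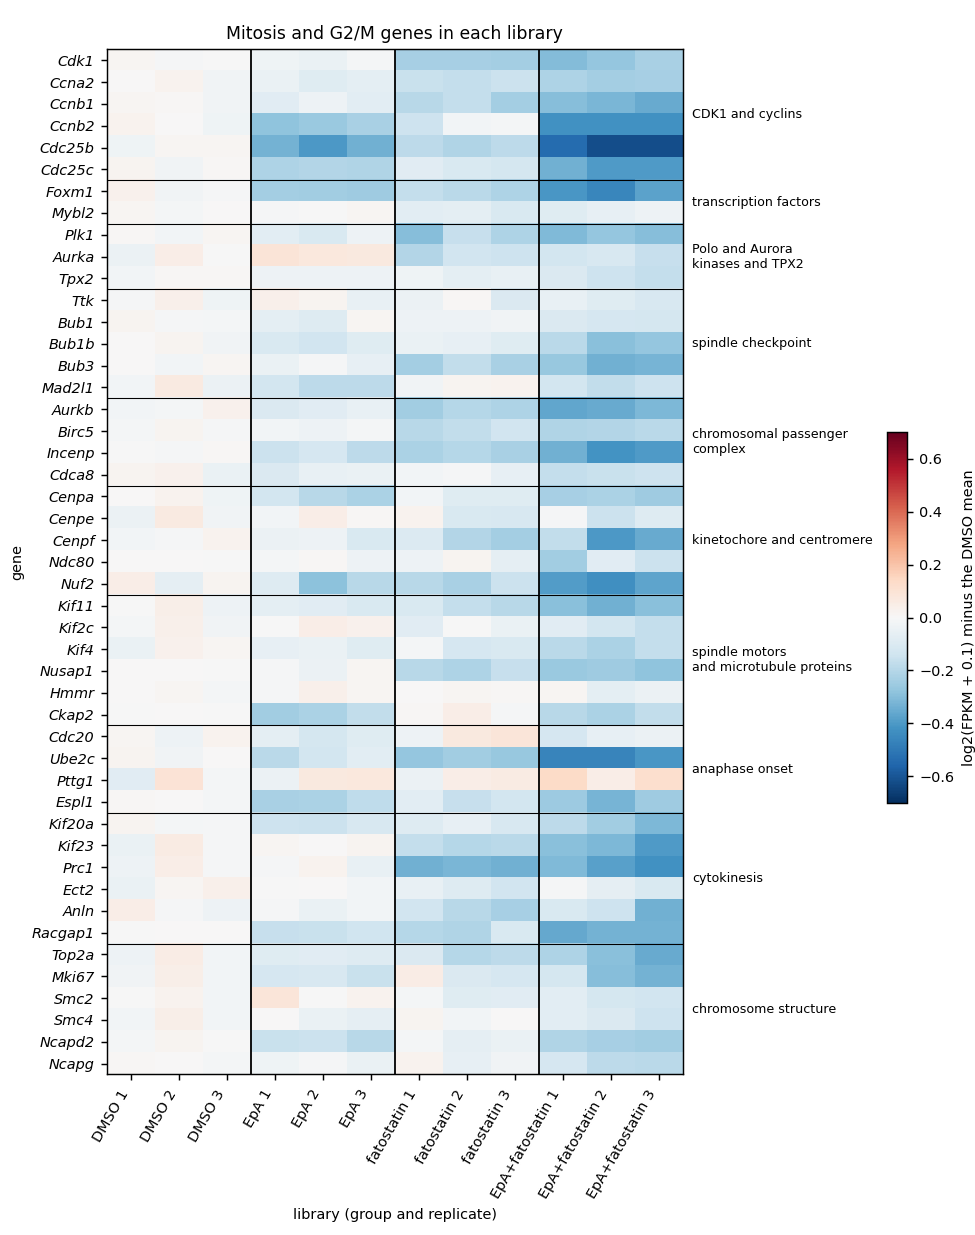
Each row is 1 of the 47 genes, grouped by role, and each column 1 of the 12 libraries; color gives log2(FPKM + 0.1) minus the mean of the DMSO libraries. Blue deepens toward the EpA+fatostatin libraries in most rows, whereas *Hmmr*, *Pttg1*, *Cdc20* and *Cenpe* stay near white.

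In EpA-Th9 cells 18 of the 47 genes fell and 1 rose at a limma adjusted p below 0.05, whereas 13.1% of all tested genes fell and 14.3% rose. In fatostatin-treated cells 23 fell and 0 rose, against 6.31% and 7.69% of all tested genes. With both compounds 41 fell and 0 rose, against 15.8% and 19.7%. The panel is well expressed, and among the 6156 genes with at least the mean of its lowest member the shares that fell were 18.2%, 11.4% and 24.4%, and the shares that rose 22.2%, 9.86% and 25.0%. The median log2 difference of the panel was -0.06 for EpA, -0.09 for fatostatin and -0.24 for both, beside medians near 0 for all tested genes (0.002, 0.005 and 0.016). These 3 comparisons share the DMSO libraries. The changes were small: *Cdc25b* with both compounds was the 1 gene that changed by 1.5-fold or more, and 2.02% of all tested genes fell by that size and passed the test.

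**Figure D3:**
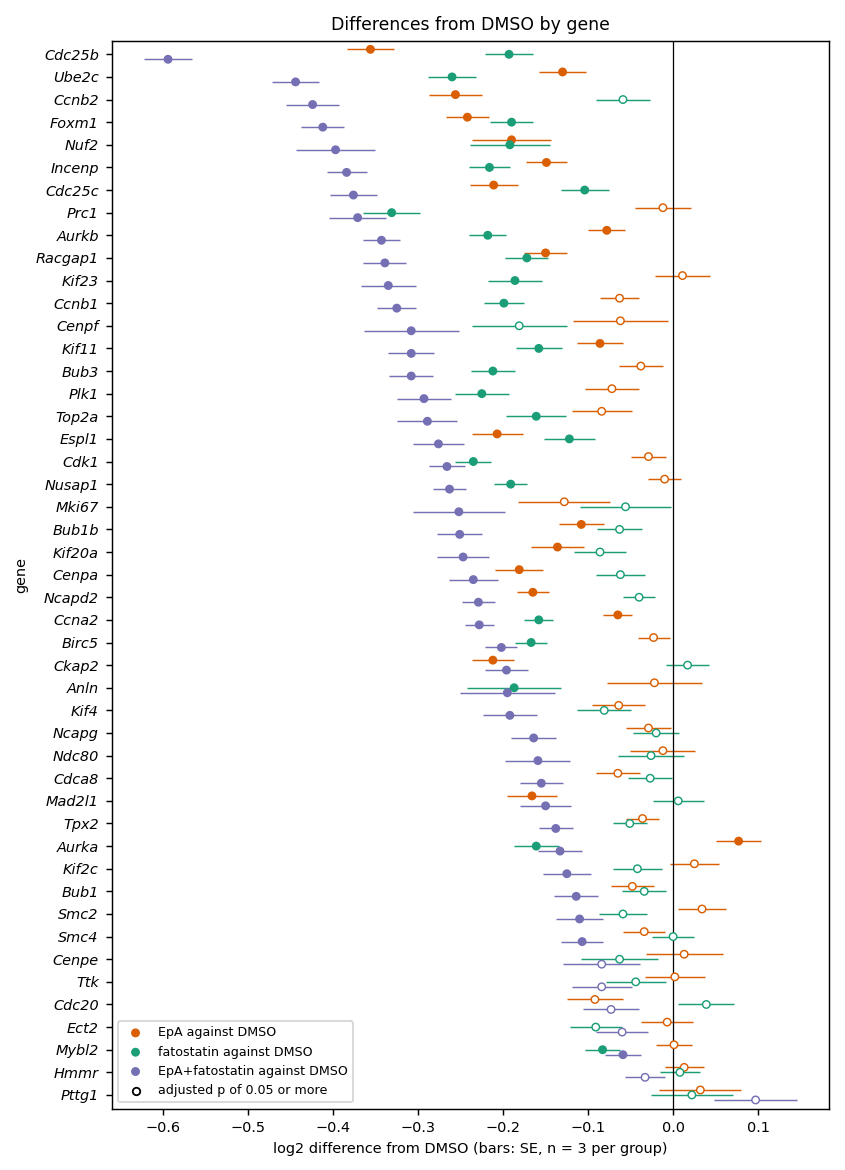
Log2 difference from DMSO (x axis) for each of the 47 genes (y axis), ordered by the combination, with bars of 1 SE and n = 3 per group; filled points have a limma adjusted p below 0.05. The combination (violet) lies left of both single compounds for most genes, from -0.59 for *Cdc25b* to 0.10 for *Pttg1*.

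Of the 6 genes of CDK1, its cyclins and its activating phosphatases, 4 fell with EpA, 5 with fatostatin and 6 with both, the last with a median of -0.35. Among the 6156 genes of like level 18.2%, 11.4% and 24.4% fell. *Cdc25b*, the phosphatase that starts CDK1 activation (ENSMUSG00000027330, chromosome 2, 131186949 to 131198497), had 35.2, 36.2 and 36.2 FPKM in DMSO, 28.5, 27.1 and 28.4 in EpA, 31.5, 30.9 and 31.6 in fatostatin, and 24.6, 23.3 and 23.3 with both. All 4 groups were apart. *Cdc25b* fell by 21.8% with EpA (limma adjusted p = 4.49e-06), by 12.5% with fatostatin (limma adjusted p = 7.85e-04), and by 33.7% with both (limma adjusted p = 3.97e-08).

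*Cdk1* itself (ENSMUSG00000019942, chromosome 10, 69335146 to 69352938) and *Ccnb2*, a cyclin B gene, showed contrasting patterns. *Cdk1* had 37.5, 36.9 and 37.0 FPKM in DMSO, 36.4, 36.0 and 36.8 in EpA, 31.6, 31.6 and 31.5 in fatostatin, and 30.1, 30.7 and 31.8 with both. The EpA libraries lay just under the DMSO libraries (log2 difference -0.03, 95% interval -0.08 to 0.02, limma adjusted p = 0.35) and *Cdk1* fell by 15.0% in fatostatin (limma adjusted p = 2.28e-05). *Ccnb2* had 103, 101 and 99.0 FPKM in DMSO, 83.2, 84.2 and 86.2 in EpA, 91.4, 99.6 and 100 in fatostatin, and 75.2, 75.3 and 75.3 with both. Here EpA gave the larger difference (-0.26, limma adjusted p = 1.14e-04) and fatostatin one within the spread (-0.06, limma adjusted p = 0.262). *Ccnb1*, the other B-type cyclin, went the way of *Cdk1*, with 83.9, 83.6 and 81.7 FPKM in DMSO, 78.7, 81.1 and 78.9 in EpA, 72.6, 74.0 and 70.5 in fatostatin, and 67.5, 66.5 and 64.9 with both. It fell by 12.9% with fatostatin (limma adjusted p = 1.54e-04) and by 20.2% with both (limma adjusted p = 9.87e-07).

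Of the transcription factors that switch on the panel, *Foxm1* fell in every comparison with DMSO and *Mybl2*, the gene of B-MYB, moved little. *Foxm1* (ENSMUSG00000001517, chromosome 6, 128362967 to 128376146) had 27.0, 26.0 and 26.3 FPKM in DMSO, 22.4, 22.4 and 22.2 in EpA, 23.6, 23.2 and 22.8 in fatostatin, and 19.9, 19.3 and 20.4 with both. The log2 differences were -0.24 (SE 0.0253, limma adjusted p = 3.48e-05), -0.19 (limma adjusted p = 4.24e-04) and -0.41 (limma adjusted p = 3.02e-07). *Mybl2* had 21.7, 21.3 and 21.6 FPKM in DMSO, 21.5, 21.5 and 21.8 in EpA, 20.5, 20.6 and 20.0 in fatostatin, and 20.4, 20.7 and 21.0 with both. It fell by 5.6% with fatostatin (limma adjusted p = 0.021) and by 4.01% with both (limma adjusted p = 0.0472), and its difference with EpA had an interval of -0.04 to 0.05 on the log2 scale.

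**Figure D4:**
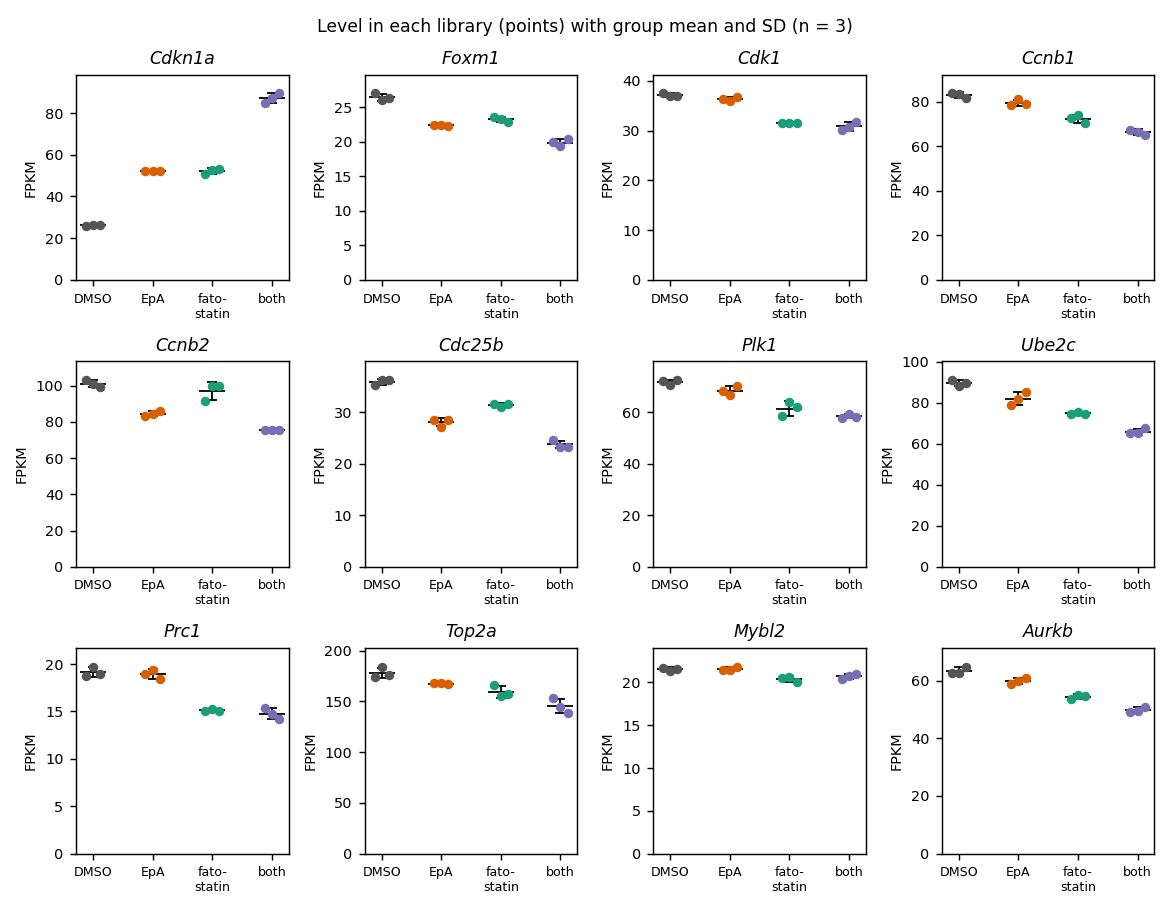
FPKM (y axis, from 0) in each library for *Cdkn1a* and 11 mitotic genes in the 4 groups (x axis), with the group mean and SD (n = 3). *Cdkn1a* rises from about 26 FPKM to between 85.0 and 89.5 as *Foxm1*, *Cdc25b* and *Ube2c* descend, whereas *Mybl2* stays between 20.0 and 21.8.

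The mitotic kinases differed between the compounds. *Plk1*, the Polo-like kinase of mitotic entry and spindle assembly, had 72.0, 70.6 and 72.4 FPKM in DMSO, 68.0, 66.6 and 70.0 in EpA, 58.3, 64.0 and 61.8 in fatostatin, and 57.8, 59.4 and 58.2 with both. It fell by 14.4% with fatostatin (limma adjusted p = 5.75e-04), and its difference with EpA (-0.07) did not pass (limma adjusted p = 0.117). *Aurka*, the centrosomal Aurora kinase, was the 1 gene of the panel that rose, at 56.6, 60.1 and 58.3 FPKM in DMSO and 62.1, 61.3 and 61.1 in EpA (0.08, limma adjusted p = 0.0498), a call that most alternative settings did not keep. With fatostatin it fell, to 50.5, 53.2 and 52.7 FPKM (-0.16, limma adjusted p = 0.00165).

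The chromosomal passenger complex corrects faulty attachments of chromosomes to the spindle, and 2 of its 4 genes fell with EpA, 3 with fatostatin and 4 with both. Beside these counts stand 18.2%, 11.4% and 24.4% of genes of like level. Its kinase *Aurkb* had 62.5, 62.6 and 64.7 FPKM in DMSO, 58.9, 59.8 and 61.0 in EpA, 53.5, 55.1 and 54.6 in fatostatin, and 49.2, 49.6 and 50.8 with both. The 4 groups did not overlap, and the differences were -0.08 (limma adjusted p = 0.0195), -0.22 (limma adjusted p = 5.07e-05) and -0.34 (limma adjusted p = 3.81e-07). The scaffold *Incenp* fell by 23.3% with both compounds and *Birc5*, which encodes survivin, by 13.0%.

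Among 5 spindle checkpoint genes, whose proteins hold back anaphase until all chromosomes are attached, 2 fell with EpA (*Bub1b* and *Mad2l1*), 1 with fatostatin (*Bub3*) and 4 with both. *Ttk*, which encodes the kinase MPS1, did not pass in any of the 3. Among genes of like level 18.2%, 11.4% and 24.4% fell in these comparisons. The 2 checkpoint genes with EpA and the 1 with fatostatin are too few to be read as a response of the list. Of 5 kinetochore and centromere genes, *Nuf2*, of the NDC80 complex, fell with each compound and by 24.1% with both. *Cenpa*, the histone variant of centromeres, fell with EpA (-0.18, limma adjusted p = 7.09e-04), and *Cenpf* and *Ndc80* passed with both compounds and with neither one alone.

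Of the 6 spindle genes, 2 fell with EpA, 2 with fatostatin and 5 with both. The 33.3% for each single compound rests on 2 genes, beside 18.2% and 11.4% of genes of like level. With both compounds it was 83.3% beside 24.4%. *Ckap2*, a microtubule-associated protein, had 22.5, 22.6 and 22.6 FPKM in DMSO, 19.1, 19.3 and 20.1 in EpA, 22.7, 23.4 and 22.5 in fatostatin, and 19.7, 19.3 and 20.0 with both. Its decrease followed EpA (-0.21, limma adjusted p = 9.17e-05), and with fatostatin the interval was -0.04 to 0.07. *Nusap1*, which bundles spindle microtubules, had 63.5, 63.6 and 63.3 FPKM in DMSO, 63.1, 61.8 and 64.1 in EpA, 55.4, 54.6 and 56.8 in fatostatin, and 52.9, 53.4 and 52.3 with both. It fell with fatostatin (-0.19, limma adjusted p = 6.67e-05), and with EpA the interval was -0.05 to 0.03. The motor *Kif11* fell with each compound and by 19.2% with both.

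Of the 4 genes of anaphase onset, *Ube2c*, the ubiquitin-conjugating enzyme that works with the anaphase-promoting complex, had the largest change with fatostatin and with both compounds, and *Espl1* with EpA. *Ube2c* had 91.0, 88.3 and 89.7 FPKM in DMSO, 78.7, 81.9 and 85.3 in EpA, 74.3, 75.6 and 74.6 in fatostatin, and 65.0, 65.1 and 67.6 with both, and no groups overlapped. It fell by 8.59% with EpA (limma adjusted p = 0.00484), by 16.5% with fatostatin (limma adjusted p = 8.32e-05) and by 26.5% with both (limma adjusted p = 3.47e-07). *Espl1*, the gene of separase, fell by 13.4% with EpA, 8.08% with fatostatin and 17.4% with both. *Cdc20*, the coactivator of the anaphase-promoting complex, and *Pttg1*, the gene of securin, passed in none of these comparisons: with both compounds they differed from DMSO by -0.07 (limma adjusted p = 0.114) and 0.10 (limma adjusted p = 0.147).

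Of the 6 cytokinesis genes, 2 fell with EpA, 4 with fatostatin and 5 with both. These are 33.3%, 66.7% and 83.3%, beside 18.2%, 11.4% and 24.4% of genes of like level, and the first rests on 2 genes. *Prc1*, which crosslinks microtubules of the central spindle (ENSMUSG00000038943, chromosome 7, 80294450 to 80316259), had 18.7, 19.7 and 19.0 FPKM in DMSO, 19.0, 19.4 and 18.4 in EpA, 15.1, 15.3 and 15.1 in fatostatin, and 15.4, 14.7 and 14.2 with both. Libraries with fatostatin lay below all libraries without it. *Prc1* fell by 20.5% with fatostatin (limma adjusted p = 5.59e-05), the largest decrease of the panel for that compound, and its interval with EpA was -0.09 to 0.06. *Anln*, the gene of anillin and the least abundant of the panel, had 7.09, 6.83 and 6.70 FPKM in DMSO, 6.84, 6.66 and 6.79 in EpA, 6.24, 5.99 and 5.84 in fatostatin, and 6.38, 6.21 and 5.42 with both. *Racgap1*, of the same complex as *Kif23*, fell by 20.9% with both.

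The 6 genes of chromosome structure fell with both compounds without exception, and 1 fell with each single compound. That 1 of 6 (16.7%) lay near the 18.2% and 11.4% of genes of like level that fell with EpA and with fatostatin. *Top2a*, topoisomerase II alpha and the most abundant gene of the panel, had 174, 184 and 176 FPKM in DMSO, 168, 168 and 167 in EpA, 166, 155 and 157 in fatostatin, and 153, 145 and 139 with both. It fell by 10.6% with fatostatin (limma adjusted p = 0.0107) and by 18.1% with both (limma adjusted p = 7.17e-05). *Ncapd2*, a condensin subunit, had 107, 110 and 108 FPKM in DMSO, 97.3, 97.5 and 94.7 in EpA, 107, 104 and 105 in fatostatin, and 93.7, 92.1 and 91.3 with both. It fell with EpA (-0.17, limma adjusted p = 7.96e-05) and gave -0.04 with fatostatin (limma adjusted p = 0.211). *Mki67*, the proliferation marker, fell by 16.0% with both (limma adjusted p = 0.00358).

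EpA and fatostatin were then compared directly, although the doses differed (10 μM EpA, 5 μM fatostatin). The comparisons with DMSO share their control libraries, so no overlap between them is read here. In the test of EpA against fatostatin 16 genes of the panel were higher in EpA and 9 lower, against 17.7% of all tested genes in each direction. These are 34.0% and 19.1% of the panel, and among genes with at least the mean of its lowest member the shares were 28.2% and 21.4%, so the counts lay near those of genes of like level. The 9 lower genes were *Ccnb2*, *Cdc25b*, *Cdc25c*, *Mad2l1*, *Cenpa*, *Ckap2*, *Cdc20*, *Espl1* and *Ncapd2*. The 16 higher genes were *Cdk1*, *Ccna2*, *Ccnb1*, *Mybl2*, *Plk1*, *Aurka*, *Bub3*, *Aurkb*, *Birc5*, *Incenp*, *Nusap1*, *Ube2c*, *Kif23*, *Prc1*, *Anln* and *Smc2*. *Prc1* was 24.7% higher in EpA than in fatostatin (limma adjusted p = 2.13e-05) and *Cdk1* 15.3% higher (limma adjusted p = 1.85e-05), and *Ckap2* had a log2 difference of -0.23 (limma adjusted p = 3.12e-05). *Cdkn1a* itself had a log2 difference of 0.00 between EpA and fatostatin (95% interval -0.05 to 0.05, limma adjusted p = 0.994). The median over the panel was also small (0.021), and 22 of its genes were called in neither direction.

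The combination was also set against each single compound. Against EpA alone 32 genes fell and 0 rose, with 6.79% of all tested genes falling (933) and 9.22% rising (1266). Against fatostatin alone 33 fell and 0 rose, with 13.3% (1830) and 16.2% (2221). Among genes of at least the level of the lowest member 12.5% fell and 11.2% rose against EpA, and 19.8% and 23.2% against fatostatin. Under median ratio scaling the order of the 2 directions over all genes turned, to 1252 falling and 1090 rising against EpA, 2087 and 1981 against fatostatin, and 2497 and 2385 (from 2171 and 2706) against DMSO. Both comparisons share the combination libraries. *Foxm1* differed by -0.17 from EpA (limma adjusted p = 8.98e-04) and by -0.22 from fatostatin (limma adjusted p = 5.97e-05). *Cdk1*, *Plk1* and *Prc1* fell relative to EpA and not relative to fatostatin, and *Cenpa*, *Ckap2* and *Mad2l1* the reverse. The 6 genes that did not pass with both compounds against DMSO were *Ttk*, *Cenpe*, *Hmmr*, *Cdc20*, *Pttg1* and *Ect2*.

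Whether the effect of EpA depended on fatostatin was tested with an interaction term. No gene of the panel passed in limma (0 of 47), and 6 had an unadjusted p below 0.05 (*Kif23*, *Ncapg*, *Kif2c*, *Ccnb2*, *Nusap1* and *Ndc80*), each with a negative estimate, beside 1083 of the 13733 tested genes. Among all tested genes limma called 5 higher (0.0364%) and 1 lower (0.00728%). By voom on recovered reads 0 of the panel passed, beside 14 higher and 5 lower among all genes. The median estimate was -0.04 on the log2 scale. Over genes at large the design detects small interactions poorly. In simulated data of 13575 genes, 16 of 100 interactions of 0.3 and 88 of 100 of 0.7 were recovered. For the panel itself the intervals of the interaction reached -0.26 at the lowest (*Kif23*) and 0.19 at the highest (*Pttg1*). An interaction of 0.3 in either direction thus lay outside the interval of each of the 47 genes, and smaller ones could have been missed. *Cdkn1a* was the 1 gene that limma called lower, with -0.25 on the log2 scale (SE 0.0315, limma adjusted p = 0.0372). That call was lost under median ratio scaling (0.0505), without the trend (0.125), with the replicate block (0.0638) and on leaving out any library other than fatostatin replicate 1, with the limma adjusted p running up to 0.147.

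The wider cell cycle was read from lists of genes outside the panel. Of 77 other mitotic genes, 30 fell and 2 rose with EpA, 24 fell and 3 rose with fatostatin, and 59 fell and 2 rose with both (medians -0.07, -0.07 and -0.18). Of 47 S phase genes, 11 fell and 1 rose with EpA, 7 fell and 1 rose with fatostatin, and 31 fell and 2 rose with both (medians -0.03, -0.05 and -0.11). Of 15 subunits of the anaphase-promoting complex, 0, 1 and 4 fell. Among genes with at least the mean of the lowest panel member, the shares that fell were the 18.2%, 11.4% and 24.4% given before, and the 23.4% and 14.9% of S phase genes with EpA and with fatostatin and the 26.7% of the anaphase-promoting complex with both compounds lay near them. Of 10 cyclins and kinases of G1, 5 rose and 1 fell with EpA, 2 rose and 1 fell with fatostatin, and 5 rose and 2 fell with both. Beside these stand the 22.2%, 9.86% and 25.0% of genes of like level that rose. Of 25 p53 target genes, *Cdkn1a* among them, 15 rose and 2 fell with EpA, 20 rose and 1 fell with fatostatin, and 22 rose and 1 fell with both (medians 0.24, 0.62 and 0.83).

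**Figure D5:**
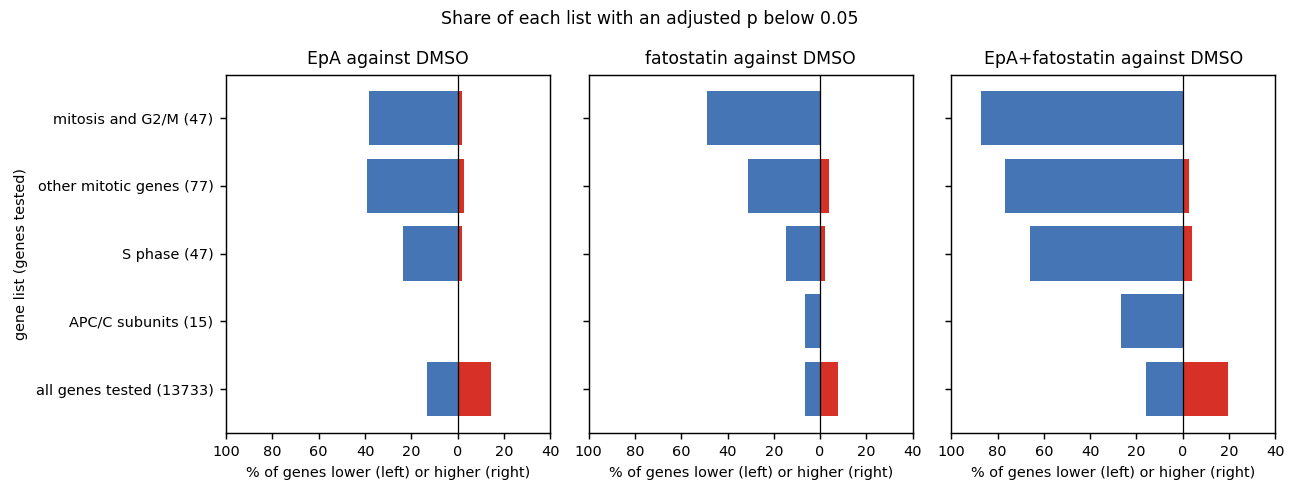
Percent of each gene list with a limma adjusted p below 0.05 that was lower (blue, left) or higher (red, right) than DMSO, for the 3 comparisons. With both compounds 41 of 47 mitosis and G2/M genes, 59 of 77 other mitotic genes and 31 of 47 S phase genes fell, beside 15.8% of all tested genes.

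The other CDK inhibitors were mixed. Of the 5 that passed the filter, *Cdkn1a* included, *Cdkn2c*, which encodes p18, fell with EpA from 5.63 ± 0.215 to 3.57 ± 0.25 FPKM (SD, n = 3; -0.65, limma adjusted p = 9.14e-05), and *Cdkn1b*, which encodes p27, fell with fatostatin (-0.22, limma adjusted p = 4.39e-04). *Cdkn2d*, which encodes p19, rose with EpA (0.10, limma adjusted p = 0.0242) and fell with fatostatin (-0.11, limma adjusted p = 0.0201). Of 21 MuvB, E2F and Rb regulators, 6 fell and 2 rose with EpA, 2 fell and 4 rose with fatostatin, and 7 fell and 4 rose with both (medians -0.02, 0.01 and -0.03). The shares that fell were 28.6%, 9.52% and 33.3%, beside 18.2%, 11.4% and 24.4% of genes of like level. Those that rose were 9.52%, 19.0% and 19.0%, beside 22.2%, 9.86% and 25.0%. With so few genes these counts are not read as a response of the list, and the genes below are single cases. In this list *E2f8*, a repressor of the E2F family, fell with EpA (-0.19), with fatostatin (-0.12) and with both (-0.51, limma adjusted p = 2.16e-07). *Rbl1*, which encodes the DREAM subunit p107, fell with EpA (-0.21, limma adjusted p = 0.00263) and with both (-0.39, limma adjusted p = 1.64e-05). *E2f5*, another repressor of that family, rose with each compound and with both (0.63, limma adjusted p = 5.45e-06). *Mybl1*, a relative of *Mybl2*, rose with fatostatin (0.45, limma adjusted p = 0.0013) and with both (0.51, limma adjusted p = 1.58e-04).

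Promoter content and change were set side by side for the 39 genes with a window. With both compounds the median difference was -0.24 over the 29 genes with a CHR core, of which 25 fell, and -0.18 over the 10 without one, of which 8 fell. With EpA the medians were -0.06 and -0.04, and with fatostatin -0.08 and -0.13. The order of the medians thus differed between the compounds, and genes fell both with and without the core.

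Each gene had at least 1064 reads in every library, and the median coefficient of variation over the panel was 1.65% in DMSO and 2.5% with both compounds. Exons of 15 genes of the panel overlap another annotated gene, *Foxm1*, *Cdc25b*, *Ube2c*, *Prc1* and *Top2a* among them, and reads of such pairs may not have been told apart.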

How the data were processed

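RNA-seq was performed on Th9 cells in 4 groups of 3 libraries. The authors used Trim Galore for trimming, HISAT2 for alignment to GRCm38 and featureCounts for gene counts, and deposited FPKM values. The annotation release and the use of strand in counting are not given in the sources used here. The table had 32352 lines for 32051 genes, and 301 repeated lines with the same values were dropped. Exon lengths and positions came from GENCODE vM21 (99.9% of genes). With these, 98.3% to 98.5% of values under 1000 reads came out within 0.05 of a whole read. These recovered reads were used only in an alternative.

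Genes that averaged 0.1 FPKM or more over the 12 libraries were tested as log2(FPKM + 0.1) with limma 3.58.1 in R 4.3.3, as 1 fit of 4 group means with an intensity trend. Fold changes are on that scale. The p-values are two-sided and Benjamini-Hochberg adjusted across the 13733 genes of each of 7 comparisons. An exact permutation test of 3 against 3 cannot go below 0.1 and was not used. In simulated data for EpA against DMSO, 60 of 100 changes of 0.3 and 96 of 100 of 0.7 (log2) were recovered, with 11 other calls among 13587 genes. The members of the panel and the lists, and *Cdkn1a* as the gene the panel is set against, were chosen with earlier results of these data known. Values in every library are given for *Cdkn1a*, for the 5 genes with the smallest adjusted p with EpA and with fatostatin, for the most and least abundant gene, and for *Foxm1*, *Mybl2*, *Cdk1*, *Ccnb1*, *Plk1* and *Top2a*; other genes given with values, *Aurka* included, were chosen after these were seen. Alternatives changed the pseudocount (1 or 0.01), the filter (none, or 1 FPKM), scaling by TPM or median ratio, the groups in the fit, the trend, the replicate block and the unit (voom on recovered reads), and left out each library in turn. DESeq2, which the authors ran on counts, was not run.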

Additional observations from a re-analysis of the deposited data

Results flagged for a closer look

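The effect of EpA on *Cdkn1a* differed with and without fatostatin, by the interaction term of the fit across all genes (-0.25 on the log2 scale, 95% interval -0.32 to -0.19, limma adjusted p = 0.0372). The negative sign belongs to that scale, since in FPKM EpA added more with fatostatin than without it. On the log2 scale EpA added 0.99 to DMSO and 0.74 to fatostatin, in 3 of 3 libraries each time above all libraries it was compared with. Over the alternative settings the limma adjusted p of this difference ran from 0.00312 to 0.147. The call was lost under median ratio scaling (0.0505), without the trend (0.125), with the replicate block (0.0638) and on leaving out any library other than fatostatin replicate 1 (0.0244).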

How the results depend on the processing

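The number of the 47 genes that fell ran from 15 to 20 with EpA, 18 to 25 with fatostatin and 39 to 41 with both compounds when libraries were left out, and from 15 to 22, 21 to 25 and 39 to 42 under the other alternatives. Against EpA alone the combination had 27 to 32 and 28 to 36, and against fatostatin alone 26 to 33 and 25 to 34. The number that rose with EpA was 0 instead of 1 with a pseudocount of 0.01, no filter, median ratio scaling, only the groups compared, no trend, or voom, and 0 to 1 on leaving out a library; this is the call of *Aurka*. The number that rose with both was 0 to 1, and the 1 was *Pttg1* without DMSO replicate 2 (0.14, limma adjusted p = 0.0374). Differences near 0 with EpA changed sign: *Mybl2* was -0.0016 under median ratio scaling and -0.0001 by voom, and on leaving out a library *Prc1* ran from -0.0293 to 0.0103, *Nusap1* from -0.0229 to 0.0038 and *Mybl2* from -0.0065 to 0.0069; the cause was not tested. Of 2155 values for 98 gene results, 2048 kept direction and side of the threshold, 95 missed it, 5 newly passed and 7 changed sign. Replicate numbers did not pair the libraries (correlation of deviations -0.047 to 0.074 over 18 same-numbered pairs, -0.086 to 0.049 over 36 others); with a replicate block 19 genes fell with EpA, 24 with fatostatin and 41 with both.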
